A study of Saccharomyces cerevisiae with 21 samples.

Results

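Nascent RNA was measured in untreated wild type (WT) Saccharomyces cerevisiae, and the 3 WT libraries are described here out of 21 libraries in the series. They were chosen by their label, not by any measured value. Nascent RNA-seq captures the RNA that is held by RNA polymerase II (Pol II): the polymerase is pulled down through a FLAG tag on its Rpb3 subunit, and the attached RNA is sequenced. The method is meant to follow how much transcribing polymerase a gene carries rather than its store of mRNA, though stable RNA can be carried along. Because a level is a share of all RNA in a library of many cells, fewer transcribing cells and less RNA per cell cannot be told apart.

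The WT strain, a MATa derivative of BY4741, is labelled his3D1, leu2D0, met15D0 and ura3D0 with RPB3 replaced by RPB3-3xFLAG (marker NATMX). It was left without treatment. The comparison groups were the Sth1-AID, Rap1-AID and STH1-AID/RAP1-AID strains given DMSO, with 3 libraries each. All of them are labelled with the WT background and the tagged Rpb3, although the reads at MET17 set the Sth1-AID strain apart from WT. They add OsTIR1 under the GPD1 promoter, integrated with a LEU2 marker, and an AID degron on Sth1, on Rap1 or on both, and they received the solvent. OsTIR1, its marker and DMSO are common to all 3 controls and cannot be told apart in a difference from WT, and a difference from a single control can also hold its degron or another difference between strains. All strains grew in YPD, a rich glucose medium, at 30 °C to an OD600 of about 0.8. The 3 libraries of each condition were labelled biological replicates. The other 9 libraries of the series are the same degron strains given auxin (IAA).

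The WT libraries held 20675890, 23182315 and 20582106 expected counts in replicates 1, 2 and 3, against 19160382 to 22747571 in the 9 DMSO libraries. They spread over 7126 annotated features, of which 5897 were protein-coding genes. At least 1 count was seen for 6438 to 6496 features in WT and for 6542 to 6628 features in the DMSO libraries. The groups did not overlap, and WT detected 123 fewer features on average (two-sided exact permutation test, p = 0.00909, the smallest that 3 against 9 libraries allow). This test treats the 9 controls as replicates although they come from 3 strains.

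The labelled genotype was only in part what the reads showed. HIS3, an enzyme of histidine synthesis, had 922, 1010 and 924 counts in WT, but counts over a whole gene do not show whether part of it is deleted. LEU2 had 0 counts in each of the 21 libraries, and that included the strains labelled with a LEU2 marker. URA3 had 2, 0 and 0 counts in WT. MET17 (also called MET15), which makes homocysteine, had 1072, 1039 and 1228 counts in the WT libraries labelled met15D0. Of the other strains, those labelled Rap1-AID and STH1-AID/RAP1-AID also held MET17 reads, and only the Sth1-AID libraries, at 0 to 2 counts, lacked them. LYS2, an enzyme of lysine synthesis that the labels do not mention, had 0 counts in all 21 libraries over a coding length of 4179 bases. The reads at MET17 and LYS2 thus went against the label of the WT strain.

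Mating type was as labelled. Cells of mating type a transcribe the a-specific genes and keep the alpha-specific genes off. STE2, the receptor for alpha-factor, stood at 257, 169 and 241 TPM (a length-corrected share of each library), and BAR1, the protease that degrades alpha-factor, at 156, 109 and 141 TPM. STE3, the receptor of alpha cells, stayed at or below 0.12 TPM. MF(ALPHA)1 had 1 count in a single library and MF(ALPHA)2 had none. The exceptions were SAG1, alpha-agglutinin, at 14.7 ± 0.90 TPM (SD, n = 3), and ASG7, an a-specific gene, at 0.84 ± 0.17 TPM. The silent cassettes share sequence with the MAT locus: HMLALPHA2 and MATALPHA2 each received the same 34.4 TPM, so their source could not be assigned, while HMLALPHA1 and MATALPHA1 had 0 counts. Middle and late sporulation genes, which a haploid culture does not use, had a median of 0.30 TPM.

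Transcription by Pol II starts when activators and remodelers such as RSC open a promoter and the general factors load the polymerase there. In yeast growing on glucose it is known to be dominated by genes for glycolysis and for making ribosomes, which general regulatory factors such as Rap1 help to activate. Many genes for respiration, other sugars, meiosis and the ends of chromosomes are known to be held low by glucose repression, by the Ume6 repressor, and by Sir silencing.

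Protein-coding genes took 71.2, 72.2 and 77.1% of all TPM in the WT replicates, a mean of 73.5 ± 3.2% (SD, n = 3). The 6 spliceosomal snRNA features took 23.6, 20.8 and 17.6%, and the 76 snoRNAs took 2.65, 4.38 and 2.77%. By counts, which are not divided by length, protein-coding genes held 90.8 ± 1.2% and snRNAs 6.44 ± 0.91%. The share of snRNA was thus high by either measure. SNR19, the U1 snRNA, was the highest feature of all, at 109599, 111258 and 87456 TPM. SNR7-S, the short U5 snRNA, followed at 99426, 70690 and 64787 TPM, and LSR1, the U2 snRNA, at 19883, 18907 and 17660 TPM. SNR7-S, at 179 bases, is shorter than the apparent mean fragment length of 192 to 228 bases, so its TPM rests on few positions. By counts LSR1 was higher, with 444033 on average against 35273 for SNR7-S. The snRNAs are stable RNAs that sit in the spliceosome and other particles, and their part in these levels as carried-over mature RNA was not tested.

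Among the remaining noncoding features, SNR17A, the U3 snoRNA that guides rRNA processing, stood at 5413, 13582 and 5969 TPM. Replicate 2 was apart from the other two. SNR13 and SNR4, both C/D box snoRNAs, averaged 5900 ± 475 and 2485 ± 199.6 TPM (SD, n = 3). RNA that Pol II does not make was also present. SNR6 (U6 snRNA), SCR1 (the RNA of the signal recognition particle) and RPR1 (the RNA of RNase P), all Pol III products, averaged 4104 ± 212, 2956 ± 169 and 2016 ± 449 TPM. SNR13, SNR4 and SNR6, at 124, 186 and 112 bases, are also shorter than the mean fragment. Their TPM rests on few positions, with 451, 1348 and 175 counts on average. Nuclear rRNA held 0.11 ± 0.03% of counts after rRNA removal, and features of the mitochondrial genome 0.10 ± 0.02%. The 275 tRNA genes held 36.3 counts per library in all, and 97 of them had none.

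Protein-coding transcription was uneven. The median protein-coding gene stood at 56.3 TPM, with 23.5 TPM at the lower and 115 TPM at the upper quartile, and the 95th percentile was 1330 times the 5th. The 10 highest genes held 6.21 ± 0.34% of protein-coding TPM, the 100 highest 25.8 ± 1.0%, and the 1000 highest 65.6 ± 1.2% (SD, n = 3). The lower 50% of genes together held 9.5 ± 0.38%. Replicate 2 gave the lowest share to the highest genes, with 24.6% in the top 100 against 26.5 and 26.3% in replicates 1 and 3.

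The 20 highest genes were mostly enzymes of glycolysis and fermentation, cell wall proteins and translation factors, as the plot of the 20 genes by library shows. TDH3, the main glyceraldehyde-3-phosphate dehydrogenase, had 5555, 4488 and 6069 TPM. FBA1, fructose-bisphosphate aldolase, had 5110, 4533 and 5416 TPM, and CDC19, pyruvate kinase, had 4994, 4485 and 5033 TPM. Of the 20 genes, 8 belong to glycolysis or alcohol fermentation: beside these 3 they were ADH1 (alcohol dehydrogenase), ENO2 (enolase), GPM1 (phosphoglycerate mutase), PDC1 (pyruvate decarboxylase) and PGK1 (phosphoglycerate kinase), at 4353, 3781, 3485, 3376 and 2987 TPM. For TDH3 and FBA1, replicate 3 was the highest library and replicate 2 the lowest.

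**Figure D1:**
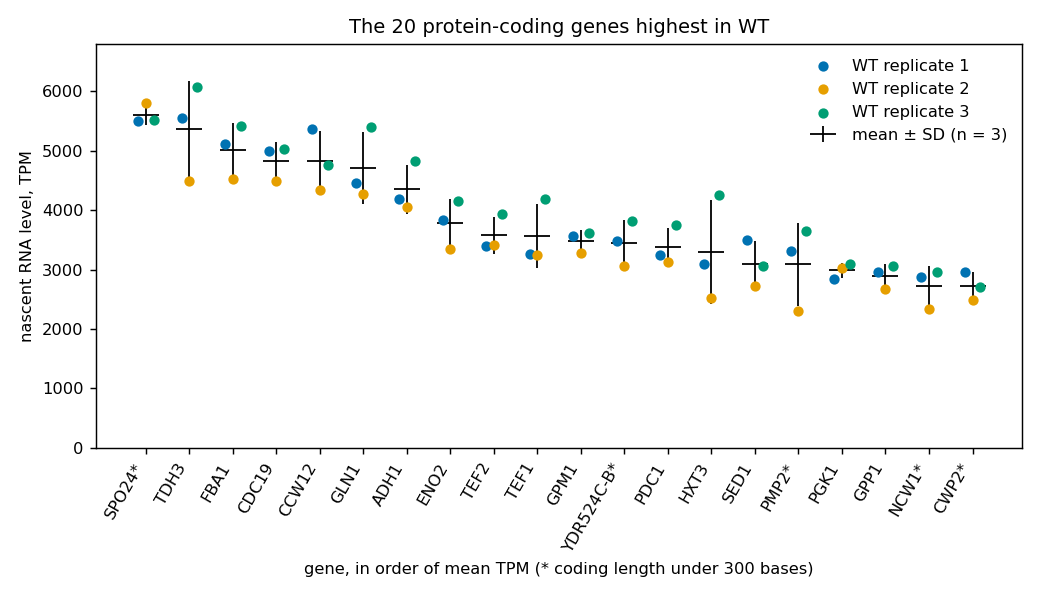
Nascent RNA level in TPM (vertical axis, from 0) of the 20 protein-coding genes with the highest mean in WT, in order of the mean. Coloured points are the 3 WT replicates and black bars the mean ± SD (n = 3). For no neighbouring pair of genes did all libraries of the higher gene lie above all libraries of the lower, and HXT3 spread most among the long genes, between 2528 and 4249 TPM.

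Cell wall mannoproteins were the next set among the 20. CCW12, which stabilises the wall at the growing bud, had 5366, 4348 and 4770 TPM, SED1 averaged 3093 ± 388 TPM and CWP2 2721 ± 237 TPM. GLN1, glutamine synthetase, had 4453, 4276 and 5399 TPM, and was the highest gene of amino acid metabolism. TEF1 and TEF2 encode the same elongation factor from near-identical copies and averaged 3569 ± 541 and 3582 ± 311 TPM, a split of shared reads that the counting could shift. HXT3, a low-affinity glucose transporter, had 3102, 2528 and 4249 TPM. GPP1, glycerol-3-phosphatase, averaged 2901 ± 197 TPM.

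The order within the 20 was not resolved. Of 19 neighbouring pairs, 0 were apart in all libraries. In the 3 replicates taken singly, 15 genes were in every top 20, and 89 in every top 100. SPO24, a small protein first known from sporulation, was first at 5498, 5807 and 5514 TPM, but its coding length is 204 bases. Fragments had an apparent mean length near 192 to 228 bases, so that genes of 180 to 220 bases were left with an effective length of 25.7 to 35.6 bases, and their TPM rests on few positions. SPO24 was at 4290 counts on average, against 102518 counts for TDH3. PMP2, a 132-base regulator of the plasma membrane proton pump, reached 3089 ± 701 TPM on 316 counts. With SPO24 and PMP2, 5 of the 20 genes were shorter than 300 bases. Among genes of 300 bases or more they gave way to HHT2 (histone H3), PMA1 (the proton pump), YNL190W, ZEO1 and RPL3, at 2649, 2643, 2639, 2589 and 2528 TPM.

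The groups of protein-coding genes spanned a wide range, from a median of 1703 ± 113 TPM for the 17 glycolysis genes to 0 TPM for the 24 seripauperins. A median here is the mean ± SD of the medians of the 3 libraries, against 56.1 ± 2.1 TPM for all protein-coding genes. No test was made for these levels. The groups of growth were high. Histones had a median of 810 ± 94 TPM, elongation factors 557 ± 62 TPM, cytosolic ribosomal protein genes 523 ± 52 TPM and chaperones 473 ± 29 TPM. Proteasome subunits followed at 287 ± 19 TPM and ribosome biogenesis genes at 218 ± 13 TPM, and all 33 and all 62 of their members lay above the median of all genes.

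**Figure D2:**
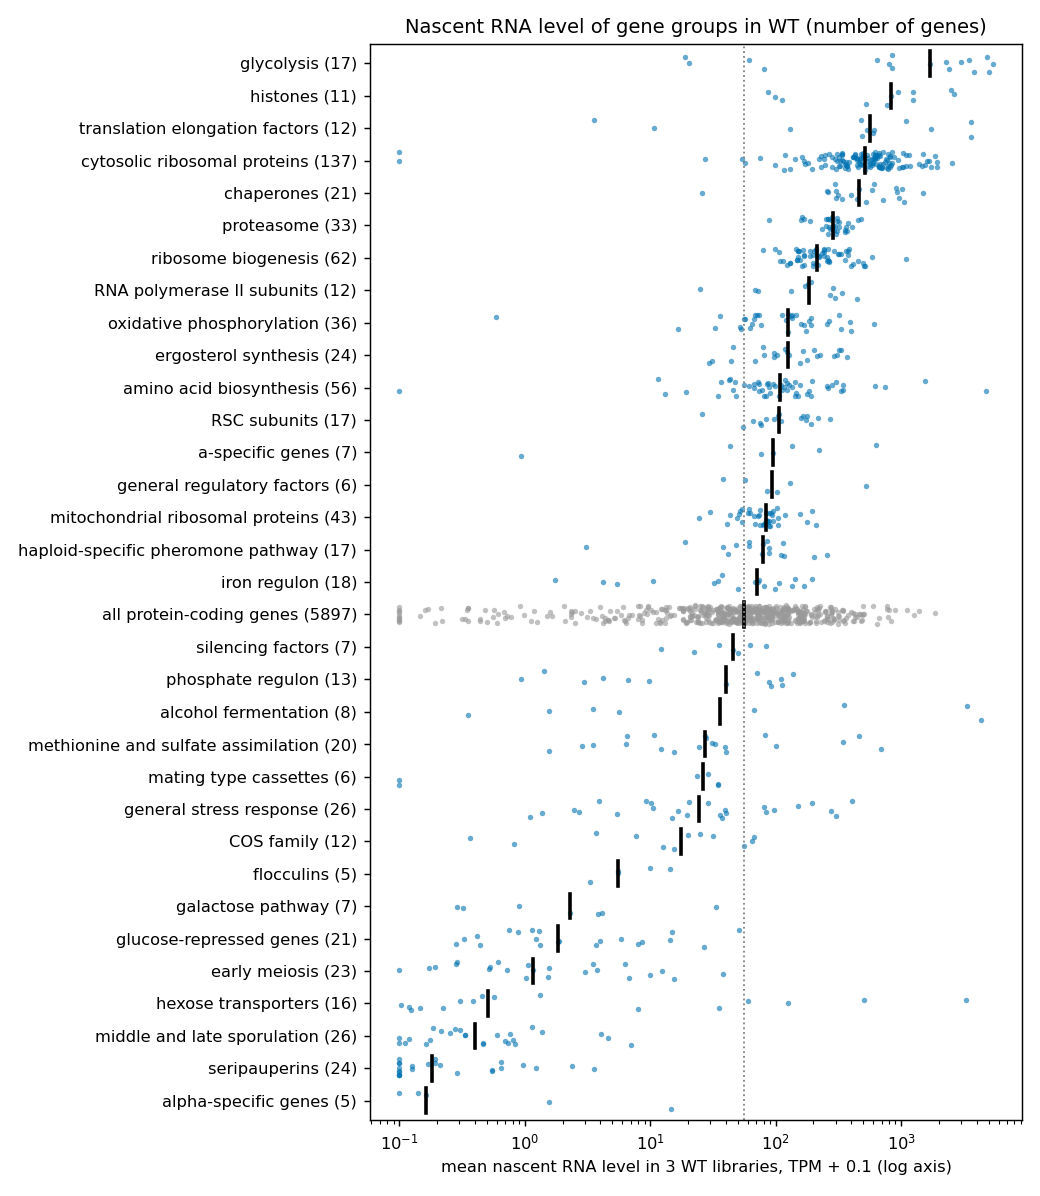
Mean nascent RNA level in the 3 WT libraries (horizontal log axis, TPM + 0.1) of the genes in each group. Points are genes, black ticks group medians, and the dotted line is the median of all protein-coding genes, of which 600 are drawn in grey. Glycolysis stands at the top with most genes above 640 TPM, and the seripauperins and alpha-specific genes stand at the bottom.

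Within a group the members were far from equal. In glycolysis, 13 of 17 genes were in the highest 10% of all genes, but GLK1 (glucokinase), PYK2 (a second pyruvate kinase) and HXK1 (hexokinase 1) were at 61.4 ± 8.9, 20.1 ± 1.3 and 18.7 ± 5.6 TPM. These encode the forms used when glucose is scarce. In alcohol fermentation, ADH1 stood at 4353 ± 413 TPM and ADH2, which burns ethanol, at 1.18, 1.22 and 2.00 TPM. PDC1 had 3376 ± 334 TPM, while its relatives PDC5 and PDC6 had 3.38 ± 0.53 and 0.25 ± 0.08 TPM. The hexose transporters showed the steepest split. HXT3 and HXT1 stood at 3293 ± 876 and 506 ± 92 TPM and HXT2 at 125 ± 34 TPM, whereas HXT14, HXT15 and HXT16 had at most 0.06 TPM in any library, and the 16 genes had a median of 0.42 ± 0.10 TPM.

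The 137 cytosolic ribosomal protein genes carried 11.3% of protein-coding TPM, and 115 of them were in the highest 10%. RPL3 was the highest at 2379, 2290 and 2915 TPM, followed by RPL8A at 1797, 1861 and 2173 TPM and RPL10 at 1755, 1668 and 2325 TPM. Replicate 3 was the highest for all 3. RPL41A and RPL41B, with a coding length of 78 bases, were listed at 0 TPM although they had counts, so their TPM says nothing of their level. The genes of the large and the small subunit had nearly equal medians, 522 ± 57 and 526 ± 42 TPM. Ribosomal protein genes with an intron had a lower median (436 ± 31 TPM, 89 genes) than those without (774 ± 58 TPM, 48 genes), and the libraries of these 2 sets did not overlap. The counts cover exons only, and the part of unspliced reads in this difference was not tested.

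Most ribosomal proteins come from paired copies, and the copies differed. Of 59 pairs named A and B, the copies lay apart in every library in 46, with a median ratio of 1.60 between the higher and the lower copy, and 20 pairs differed at least 2-fold. Pairs can share reads, and 20 pairs had whole counts in all libraries, which is how reads that fit a single gene appear. Of these 20, 17 lay apart. RPS22A averaged 1006 ± 175 TPM and RPS22B 98.8 ± 8.8 TPM, RPL22A 624 ± 63 TPM and RPL22B 75.1 ± 10.7 TPM, and RPL43A 1030 ± 218 TPM and RPL43B 230 ± 16 TPM. The widest pair was RPL15A at 1472 ± 153 TPM and RPL15B at 53.6 ± 4.1 TPM, where some reads were shared.

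Genes of the transcription machinery were near or above the middle. Pol II subunits had a median of 187 ± 3 TPM, led by RPB10, of 213 bases, at 442 ± 94 TPM and by RPB3, the tagged subunit, at 334, 325 and 348 TPM. RPC10, the smallest shared subunit, stood at 25 ± 6.3 TPM on 21.7 counts. The 17 RSC subunits had a median of 107 ± 8 TPM. ARP7, an actin-related subunit, had 270 ± 24 TPM and STH1, the ATPase, 159 ± 4 TPM, while RSC3, a DNA-binding subunit, had 25.7 ± 2.4 TPM. Of the general regulatory factors, MCM1 had 522 ± 31 TPM, RAP1 130 ± 8 TPM, REB1 102 ± 9 TPM, TBF1 85.8 ± 3.5 TPM, CBF1 56.8 ± 6.7 TPM and ABF1 37.8 ± 2.7 TPM. All libraries of each of these 6 genes lay above those of the next. Silencing factors were lower, with SIR4 at 83.1 ± 2.9 TPM, SIR3 at 50.4 ± 3.2 TPM, SIR2 at 35.3 ± 2.5 TPM and SIR1 at 12 ± 1.0 TPM.

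Metabolic groups lay between. Oxidative phosphorylation genes of the nucleus had a median of 125 ± 17 TPM, from 608 ± 105 TPM for ATP2 (the catalytic beta subunit of ATP synthase) to 0.49 ± 0.49 TPM for CYC7, the cytochrome c isoform of low oxygen. Mitochondrial ribosomal protein genes had 82.3 ± 8.5 TPM. Ergosterol synthesis had 128 ± 8 TPM, led by ERG11 (lanosterol demethylase) at 368 ± 51 TPM. Amino acid synthesis had 105 ± 9 TPM, where ILV5, of branched-chain synthesis, followed GLN1 at 1556 ± 231 TPM. In sulfur metabolism, CYS4 and CYS3, of cysteine synthesis, stood at 689 ± 137 and 461 ± 28 TPM, against 1.46 ± 0.22 TPM for STR3 in the same list.

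Groups known to be repressed in rich glucose medium were low but not all silent. The galactose pathway had a median of 2.19 ± 0.23 TPM. GAL80, its repressor, was at 33.4 ± 0.2 TPM and GAL4, its activator, at 3.99 ± 0.30 TPM, while the enzyme GAL10 and the transporter GAL2 stood at 0.19 ± 0.04 and 0.22 ± 0.08 TPM. Glucose-repressed genes had 1.55 ± 0.17 TPM, from FBP1 (fructose-1,6-bisphosphatase, of gluconeogenesis) at 0.05, 0.13 and 0.37 TPM to SUC2 (invertase) at 26.4, 24.8 and 28.2 TPM and ATO3 at 51.3 ± 2.5 TPM. Early meiosis genes had 1.12 ± 0.19 TPM. Within them, REC107 had 33.1, 42.1 and 37.8 TPM and ZIP1, of the synaptonemal complex, 15.4 ± 0.4 TPM, while MEI5, a strand-exchange factor, had 0 counts. NDT80, the regulator of middle meiosis, stood at 3.33, 4.98 and 3.46 TPM. The stress response was mixed, with HSP30 at 402 ± 46 TPM, HSP104 (a disaggregase) at 279, 345 and 200 TPM and SIP18 at 1.78, 1.21 and 0 TPM.

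In all, 427 of 7126 features had 0 counts in each WT library, which at the 3 counts that a zero allows puts them below 0.129 to 0.146 CPM (counts scaled to the library total, with no correction for length). They comprised 135 of 5897 protein-coding genes (2.29%), 127 of 679 ORFs that the reference annotation used here does not list, 97 tRNA genes, 30 of 55 mitochondrial features and 16 of 76 snoRNAs. Among the silent protein-coding genes, 69 were shorter than 300 bases, where 22.5% were silent, and 15 were 600 bases or longer, where 0.32% were. Most were of unknown function: 94 had an uncharacterized product. Of the 135, 45 had 0 counts in the 9 DMSO libraries as well, and 26 in all 21 libraries. More libraries make a zero harder to keep, so this drop does not show silence particular to WT. Some of the others had few counts over the 9 DMSO libraries, such as ECM23 with 3 and GAT3 with 2.

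The silent genes of 600 bases or more included LYS2 and LEU2, which had no read in any library, and genes with low counts elsewhere. GEX1, a glutathione exchanger, and VBA3, a basic amino acid transporter, lie within 10 kb of the left end of chromosome III. ERR3, an enolase relative at 3.03 kb from the end of chromosome XIII, had 317 counts over the 9 DMSO libraries. THI5, of thiamine synthesis and 1 of a family of near copies, had 84.9 counts there. CDA1 and CDA2, the chitin deacetylases of the spore wall, had 54 and 7 counts in the DMSO libraries, FIG1, a mating gene, 31, DAL80, a nitrogen repressor, 25, and MEI5 8. Of the genes in the lists, 17 were silent, and 9 of these were seripauperins, a family of cell wall proteins near chromosome ends whose copies share reads. PAU23 was the highest seripauperin at 3.70, 3.30 and 3.43 TPM, and 23 of the 24 were in the lowest 10%.

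Levels were lower near the chromosome ends, and lowest at 5 to 10 kb. Genes within 5 kb of an end had a median of 2.65 ± 0.26 TPM (56 genes), those at 5 to 10 kb 0.32 ± 0.10 TPM (66 genes), at 10 to 20 kb 5.39 ± 0.95 TPM (122 genes) and at 20 to 40 kb 36.6 ± 0.9 TPM (281 genes). Genes 40 to 100 kb from an end and those further in had medians of 60 ± 2.6 and 59.5 ± 2.0 TPM. Silent genes made up 25, 22.7 and 4.92% of the first 3 bins, against 1.88% of genes at 100 kb or more. With genes of at least 300 bases only, the silent shares of these bins were 16.0, 18.6 and 3.39%, against 0.91%. Genes near the ends were not uniformly low. IRC7, a cysteine desulfhydrase 4.94 kb from the right end of chromosome VI, had 826, 863 and 828 TPM, NRE1 on chromosome IX had 592, 644 and 598 TPM, and FET4, a low-affinity iron transporter on chromosome XIII, had 260, 282 and 255 TPM.

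**Figure D3:**
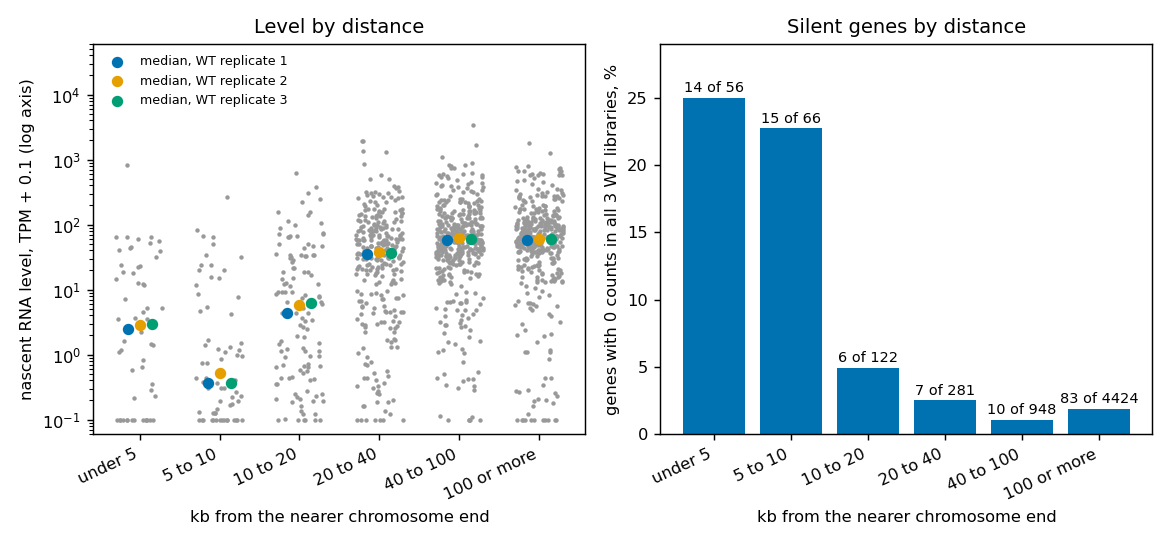
Left, nascent RNA level (log axis, TPM + 0.1) against distance to the nearer chromosome end, with genes in grey (at most 400 drawn per bin) and the median of each WT replicate in colour. Right, the percentage of protein-coding genes with 0 counts in all 3 WT libraries, with numbers of genes above the bars, which is 25% under 5 kb and 1.88% at 100 kb or more.

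Families of the ends differed among themselves. The 12 COS genes, of membrane protein sorting, had a median of 18.8 ± 3.4 TPM, with COS6, COS2 and COS7 at 67.4 ± 10.1, 64.8 ± 12.6 and 55.4 ± 6.7 TPM and COS12 and COS4 at 0.72 ± 0.17 and 0.26 ± 0.16 TPM. The 5 flocculins, the adhesins of the cell surface, were low as a set, from FLO5 at 14.2 ± 1.1 TPM to FLO10 at 3.19 ± 0.43 TPM, and FLO11 stood at 9.93 ± 0.91 TPM. COS genes share reads between copies.

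Promoter sequence was compared with level over the 500 bases upstream of the start codon, in 5895 promoters, on both strands. The match of a motif is a description and does not show binding. PAC (core GATGAG) and RRPE (core AAAAATTT) are motifs known from ribosome biogenesis promoters. The RRPE core was in 20.7% of all promoters, in 36.8% of the highest 10% of genes and in 12.9% of the lowest. Genes with an RRPE core had a median of 89.1 ± 2.9 TPM (1220 genes) against 50.1 ± 1.8 TPM without (4675 genes). The PAC core was in 27.9% of promoters, with medians of 67.9 ± 3.5 TPM with and 52.0 ± 1.8 TPM without it. Both were in 503 promoters (8.53%), which had a median of 118 ± 7 TPM, against 49.2 ± 1.9 TPM for the 3535 promoters with neither. Of the 62 ribosome biogenesis genes, 93.5% had the PAC core, 87.1% the RRPE core and 50 had both. The 453 other promoters with both had a median of 104 TPM.

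To show how the pair sits in high ribosome biogenesis promoters, 80-base windows of the R64 genome are given 5′ to 3′ on the strand of the gene, with the closest pair of cores in capitals and any further match left in lower case. All end at least 100 bases before the start codon. NSR1 (chrVII:807810-807889, minus strand) encodes nucleolin and was the highest of the list at 1085 ± 94 TPM. NOP1 (chrIV:427113-427192, plus strand) encodes fibrillarin and had 587 ± 79 TPM, and NOG1 (chrXVI:370798-370877, plus strand), a nucleolar GTPase, had 517 ± 34 TPM. CBF5 (chrXII:505954-506033, plus strand), the pseudouridine synthase of H/ACA particles, had 494 TPM. NOG2 (chrXIV:723246-723325, minus strand) encodes another GTPase of the large subunit at 414 TPM, and DBP3 (chrVII:361966-362045, minus strand) an RNA helicase at 400 TPM.
NSR1: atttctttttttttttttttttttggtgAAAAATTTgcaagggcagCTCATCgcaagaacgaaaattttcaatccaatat
NOP1: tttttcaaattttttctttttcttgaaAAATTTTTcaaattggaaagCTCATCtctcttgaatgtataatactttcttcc
NOG1: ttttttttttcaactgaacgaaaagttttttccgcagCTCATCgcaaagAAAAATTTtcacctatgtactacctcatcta
CBF5: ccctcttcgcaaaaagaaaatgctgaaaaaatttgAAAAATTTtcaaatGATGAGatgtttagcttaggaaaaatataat
NOG2: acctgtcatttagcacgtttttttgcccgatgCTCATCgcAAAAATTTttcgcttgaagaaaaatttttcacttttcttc
DBP3: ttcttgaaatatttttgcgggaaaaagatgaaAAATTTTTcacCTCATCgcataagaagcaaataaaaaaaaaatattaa

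Of the 34 ribosome biogenesis genes with such a window, the PAC core reads as GATGAG in 19, as for CBF5, and as its reverse complement in 15, as in the other 5 windows shown. The windows were picked to hold both cores, so their closeness is set by that choice. Reb1 sites (TTACCCG) were in 10.3% of promoters and went with a median of 82.6 ± 4.6 TPM, against 52.8 ± 1.6 TPM without. Abf1 consensus sites, in 22.8% of promoters, went with 72.7 ± 2.9 TPM, against 51.7 ± 1.7 TPM. The TATA box (TATAAA) and the Gcr1 core (CTTCC) hardly separated the levels, with medians of 55.4 and 57.1 TPM and of 56.0 and 56.3 TPM with and without a match. Letters of these motifs can overlap: runs of A, for example, were in 65.2% of promoters as AAAAAAA and can include part of an RRPE core.

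The Rap1 core (ACCCNNACA) was in 5.50% of all promoters and in 39.4% of those of ribosomal protein genes. Outside the ribosomal protein genes, the medians with and without it were 53.5 TPM (270 genes) and 54.2 TPM (5488 genes). It was present in 23.5% of glycolysis promoters and in 3 of the 20 highest genes. For TEF2 (chrII:477210-477269, plus strand), GPM1 (chrXI:164746-164805, minus strand) and PGK1 (chrIII:137248-137307, plus strand) the match lay 426, 385 and 463 bases before the start codon. The same core is shown for RPL8A (chrVIII:36231-36290, minus strand), the second highest ribosomal protein gene, where it lay 230 bases before the start codon. The windows are of 60 bases with the match in capitals.
TEF2: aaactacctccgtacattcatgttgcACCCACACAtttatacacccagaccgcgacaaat
GPM1: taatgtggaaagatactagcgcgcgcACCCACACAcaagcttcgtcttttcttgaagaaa
PGK1: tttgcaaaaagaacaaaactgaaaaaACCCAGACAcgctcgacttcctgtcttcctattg
RPL8A: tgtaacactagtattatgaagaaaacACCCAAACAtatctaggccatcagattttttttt

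All 4 matches read in the direction of the gene. This core allows no mismatch, and promoters without it, such as that of TDH3, say nothing of Rap1 there.

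Measured levels also differed with gene length and introns. The shortest 10%, of 51 to 375 bases, had a median of 15.9 ± 1.4 TPM and 99 of the 135 silent genes, and the medians of the other 9 bins of equal size by length lay between 53.1 and 64.3 TPM. Genes below the apparent mean fragment length of 192 to 228 bases can yield few fragments. The part of this in the low median and the zeros was not tested. Yet 70 of the shortest 589 genes were in the highest 10% by level. Outside the ribosomal protein genes, the 182 genes with an intron had a median of 34.9 ± 1.4 TPM, against 55.2 ± 1.9 TPM for the 5578 without.

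The 3 WT replicates lay close together. Their log2(TPM + 1) values correlated across protein-coding genes with Pearson's r of 0.992 for each pair, although genes are not independent replicates. The median coefficient of variation (CV) of TPM was 8.12% over 5429 genes with at least 10 counts on average, and 96.8 to 97.3% of those genes were within 1.5-fold between any 2 replicates. In the other 6 conditions the median CV was 9.2 to 12.6%, so WT had the lowest. The spread still exceeded counting noise: counts of pairs differed with a chi-square of 20.7 to 35.3 per degree of freedom, and in the highest 10% of genes the median CV was 9.62% where counting noise alone gives 1.09%. In the lowest 10%, at a median of 2.67 counts, the median CV was 42.0%, which leaves out genes without any TPM, such as silent genes. Counting noise alone gives 61.2% at that median count, which includes those genes. The CV and the counting noise there cover different genes and cannot be compared. Replicate 1 was the lowest library for 57.8% of genes with at least 50 counts, and it held the largest snRNA share by TPM, while by counts replicate 2 did (6.89, 7.04 and 5.39% in replicates 1, 2 and 3).

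The most variable genes among the 5176 with at least 50 counts were few, as the plot of spread against count shows, and 4 had a CV above 50%. COS3 had 2.40, 24.1 and 19.6 TPM, with replicate 1 low. HXT4, a high-affinity glucose transporter, had 37.8, 45.0 and 96.2 TPM, with replicate 3 high. BSC1, at 1155, 501 and 578 TPM, stood out because it was also abundant. OSW2, of the spore wall, had 0.85, 1.65 and 0.64 TPM. ADF1 had 48.2, 109 and 66.0 TPM, MNC1 65.0, 109 and 44.5 TPM and ROF1 2.47, 5.54 and 3.58 TPM, all with replicate 2 high. HMRA2, YLL067C and YBL111C, from the silent mating cassette and from chromosome ends, completed the 10, and like COS3 they have close copies that share reads. By list, counting those with at least 5 genes measured, the median CV ran from 5.66% for the pheromone pathway, 5.74% for silencing factors and 6.20% for histones to 30.8% for hexose transporters and 36.3% for sporulation genes, whose counts were also low.

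**Figure D4:**
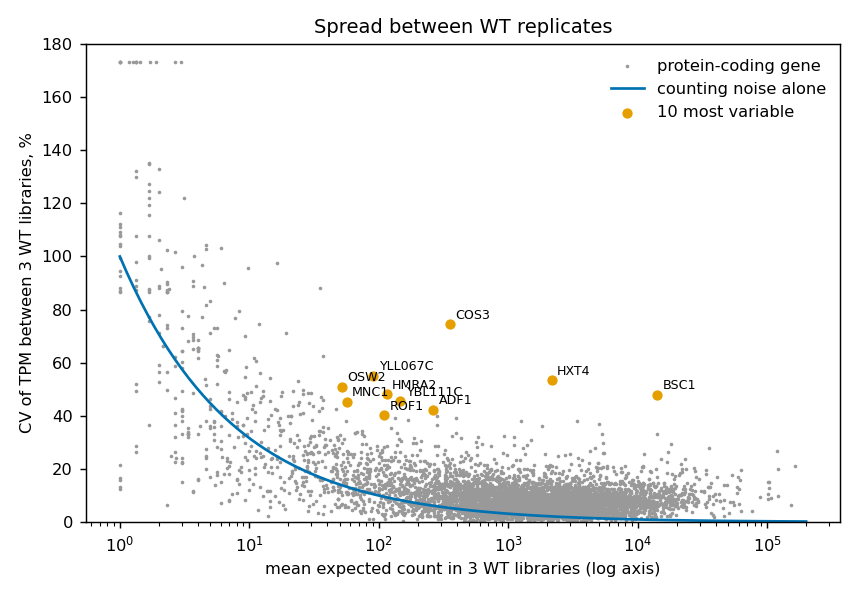
Coefficient of variation of TPM between the 3 WT libraries in percent (vertical axis) against mean expected count (horizontal log axis) for protein-coding genes with at least 1 count. The blue line is the CV that counting noise alone gives, and orange points are the 10 most variable genes with at least 50 counts, of which COS3 is highest at 74.5%.

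WT was then set against the mean of the 3 DMSO controls, which compares the strain without a degron with the undepleted degron strains. All 21 libraries entered the fit, and a feature was called at an adjusted p below 0.05 and a change above 2-fold (edgeR quasi-likelihood test with Benjamini-Hochberg adjustment). Of 6164 features tested, 427 were called (6.93%), of which 129 were higher (2.09%) and 298 lower in WT (4.83%). Among 5648 protein-coding genes 360 were called (6.37%), of which 119 were higher (2.11%) and 241 lower (4.27%). The groups did not overlap for 21% of features. By control, 664 features were called against Rap1-AID DMSO (10.8%; 3.10% higher and 7.67% lower in WT), 442 against STH1-AID/RAP1-AID DMSO (7.17%; 2.45% and 4.72%) and 365 against Sth1-AID DMSO (5.92%; 1.98% and 3.94%). These comparisons share the WT libraries. Scaling by total counts alone gave a median of -0.15 over all features (log2), with 91 higher and 387 lower in WT, so that 19% of calls were higher, against 30.2% with TMM scaling.

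Most genes that fell in WT were genes of low level. In the lowest 10% by mean level over all libraries, 131 of 565 genes were lower and 9 higher in WT, and in the highest 10% 5 of 564 were lower and 17 higher. A gene near 0 in WT could pass the filter only through other conditions. The imbalance among low genes, also near chromosome ends, can thus be set in part by the filter. Genes lower in WT were also concentrated near chromosome ends. Of 244 genes within 20 kb of an end 199 were tested, and 87 were lower in WT (43.7%) and 3 higher, with a median change of -0.95 (log2). Further in, 154 of 5449 genes were lower (2.83%), with a median change of 0.02. Within 20 kb, 109 genes were lower in WT than in Rap1-AID DMSO, 82 than in STH1-AID/RAP1-AID DMSO and 46 than in Sth1-AID DMSO. Within 5 kb the median change was -2.13 against Rap1-AID DMSO, -2.01 against STH1-AID/RAP1-AID DMSO and -0.39 against Sth1-AID DMSO. At 5 to 10 kb these medians were -2.07, -1.17 and -0.89, and at 10 to 20 kb they were -0.80, -0.47 and -0.48. The change against Rap1-AID DMSO was the largest in each of these bins, and the other controls were nearly equal at 10 to 20 kb. The difference between controls was not tested.

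Phosphate genes were among the largest changes upward. PHO84, the high-affinity phosphate transporter, had 169, 154 and 189 CPM (here scaled by TMM) in WT, against 0.37 to 18.1 CPM with a median of 0.70 CPM in the DMSO libraries. The log2 difference was 6.67 ± 0.16 (SE), with an edgeR adjusted p of 7.59e-17. The groups did not overlap, which the choice of named genes required. The mean of PHO84 was 14.7 CPM in Sth1-AID DMSO, 0.57 in Rap1-AID DMSO and 0.56 in STH1-AID/RAP1-AID DMSO. PHM8, a phosphatase of the same response, had 69.8, 76.3 and 53.3 CPM in WT, against 7.66 to 18.2 CPM. Of 13 genes in the phosphate list 3 were higher in WT (PHO84, SPL2 and VTC3) and 2 lower (the acid phosphatases PHO11 and PHO12), against 2.09% and 4.83% of all features. The list's median change was 0.55, against 0.00 over all features.

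The other genes with the largest changes upward, among those with at least 50 counts and no overlap between groups, had varied roles. TPO2, a polyamine exporter, had 1851, 1760 and 1799 CPM in WT, against 64.6 to 300 CPM in the DMSO libraries (log2 difference 3.38 ± 0.33 (SE), edgeR adjusted p = 1.75e-07). YGP1, a secreted glycoprotein of stress and starvation, had 221, 191 and 192 CPM, against 15.3 to 99.6 CPM. YRO2, a membrane protein related to HSP30, had 128, 128 and 109 CPM, against 7.58 to 51.6 CPM, and YDR222W had 210, 209 and 184 CPM, against 8.82 to 47.9 CPM. TDA6 and TOS3, a kinase that activates Snf1, were 2.48 ± 0.32 and 2.22 ± 0.17 higher on the log2 scale, and the ORF YER158W-A was 2.33 ± 0.26 higher. The WT libraries lay above all 9 controls for each of these, but the genes were picked for that, so it adds no support.

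**Figure D5:**
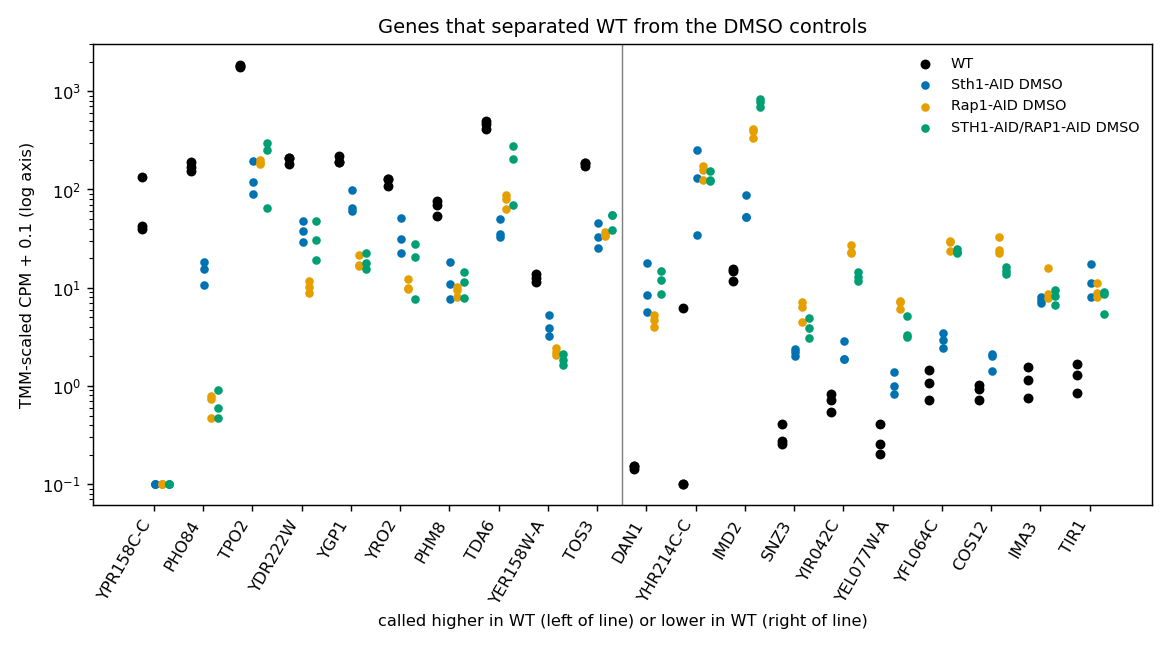
TMM-scaled CPM + 0.1 (log axis) of 10 features called in each direction, in WT (black, left) and in the 3 DMSO controls (coloured, right), 3 libraries each. They have the largest changes among called features with at least 50 counts on average and no overlap between WT and DMSO libraries. Larger called changes that failed either limit are not drawn. PHO84 spans from 154 to 189 CPM in WT, against 0.37 to 18.1 CPM in the controls, and the Sth1-AID DMSO libraries are closest to WT for IMD2, YIR042C, YFL064C and COS12.

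Genes lower in WT included cell wall genes of anaerobic growth and genes of the chromosome ends. DAN1, a mannoprotein of anaerobic cells, had 1 count in each WT library, against 3.93 to 17.9 CPM in the DMSO libraries, a ratio of WT to DMSO of 0.0056 (95% counting interval 0.0011 to 0.016). TIR1, of the same wall programme, had 1.57, 0.75 and 1.19 CPM in WT, against 5.31 to 17.3 CPM (log2 difference -3.03 ± 0.36 (SE), edgeR adjusted p = 1.84e-06), and ANB1, the low-oxygen form of the factor eIF5A, had a log2 difference of -2.94 ± 0.30. IMD2, the inducible IMP dehydrogenase of guanine nucleotide synthesis near the right end of chromosome VIII, had 15.3, 11.5 and 14.6 CPM in WT, against 52.0 to 838 CPM. It averaged 64.3 CPM in Sth1-AID DMSO, 377 CPM in Rap1-AID DMSO and 773 CPM in STH1-AID/RAP1-AID DMSO. COS12, YFL064C and YIR042C showed the same order of WT below Sth1-AID DMSO below both other controls, with WT at 0.44 to 1.35 CPM. SNZ3, of vitamin B6 synthesis, and IMA3, an isomaltase, had log2 differences of -4.06 ± 0.31 and -3.04 ± 0.25, and YEL077W-A one of -3.86 ± 0.42.

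The other lists differed in direction. In the general stress response, 6 of 26 genes were higher in WT and 2 lower, against 2.09% and 4.83% of all features, and the list's median change was 0.05. The 6 were YGP1, SPI1 (a wall protein), HSP30, HSP104, HSP42 (a small heat shock protein) and PNC1 (nicotinamidase), with log2 differences of 2.77, 2.17, 2.01, 1.56, 1.26 and 1.08, and the 2 were ALD3 and GRE1, at -1.01 and -1.14. WT and DMSO libraries overlapped for HSP104, HSP42 and PNC1. Of 36 oxidative phosphorylation genes 2 were higher in WT, QCR8 (1.55 ± 0.21) and COX4 (1.02 ± 0.12), and none was lower, with a median change of 0.49. None of the 21 genes in the chaperone list was called, at a median change of 0.52, but that list leaves out HSP104 and HSP42. None of the 137 ribosomal protein genes was higher and 1 was lower in WT (RPS9A, -1.11 ± 0.09), with a median change of 0.00. No glycolysis gene passed the 2-fold limit, although 12 of 17 had an adjusted p below 0.05, as did 42.8% of all features, and the median change was 0.45. In the proteasome list 25 of 33 genes had such a p, at a median of 0.35, and none was called. Of the low groups, 6 of 8 seripauperins tested, 9 of 23 sporulation genes, 7 of 21 glucose-repressed genes, 6 of 12 COS genes, 5 of 15 hexose transporters, 4 of 7 galactose genes and 3 of 5 alpha-specific genes were lower in WT, against 4.83% of all features. In these lists only COS7 (1.08 ± 0.16) and HXT4 (1.25 ± 0.20) were called higher in WT. The counts of tested genes leave out those that failed the filter, and only 8 of 24 seripauperins passed it. A gene near 0 in WT could pass only through other conditions. The shares lower in WT in these low groups can thus be set in part by the filter. LEU1 and BAT1, of leucine synthesis, were higher by 1.78 ± 0.08 and 1.02 ± 0.07, and their WT libraries lay above all controls. GAL4 was at 12.9, 10.3 and 11.8 CPM in WT, against 24.3 to 41.2 CPM.

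Some differences rested on copies of the Ty retrotransposon. YPR158C-C had 134, 39.1 and 42.3 CPM in WT and 0 counts in all 9 DMSO libraries, at least 521-fold higher at a floor of 3 counts per DMSO library, or at least 284-fold for the lowest WT library, since replicate 1 carries most of the counts, but the 9 IAA libraries held 12500 counts of it. YHR214C-C had 6.05, 0 and 0 CPM in WT, against 34.1 to 252 CPM. Ty copies are near-identical, so reads can be assigned to either of several loci, and a single locus is uncertain. Of the genotype genes, MET17 differed by 3.60 ± 0.13 from the mean of the controls, by 10.04 from Sth1-AID DMSO and by 0.35 and 0.41 from Rap1-AID DMSO and STH1-AID/RAP1-AID DMSO. RPB3 and HIS3 were at -0.23 ± 0.09 and -0.20 ± 0.09. RAP1 was at -0.47 ± 0.09, made up of -0.76 against Rap1-AID DMSO, -0.75 against STH1-AID/RAP1-AID DMSO and 0.10 against Sth1-AID DMSO. STH1 was at -0.13 ± 0.08, made up of 0.45, -0.20 and -0.64 against the same controls. RAP1 in WT was thus below the strains with a degron on Rap1, and STH1 in WT below the Sth1-AID strain. None of these 4 passed the 2-fold limit against the mean of the controls.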

How the data were processed

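Nascent RNA-seq of 21 libraries was used, with 3 per condition. The authors trimmed reads with cutadapt 1.9.1, aligned them with STAR 2.5.2a and quantified transcripts with RSEM 1.3.0 against Ensembl R64-1-1, with strand taken into account, and DESeq2 1.12.3 is also named in their processing notes. The authors deposited, per gene, each expected count and TPM value as RSEM estimated it, with reads that fit several genes split between them. Coordinates and names came from the RefSeq R64 annotation, the same build, which matched 6162 of 7126 features. Gene models there hold no UTRs, so lengths are coding lengths. Levels were read from the deposited TPM and given no test. Differences were tested on expected counts rounded to whole numbers with edgeR 4.0.16 (R 4.3.3): TMM scaling, filterByExpr by condition, 1 coefficient per condition, quasi-likelihood test and Benjamini-Hochberg adjustment over all 6164 features kept.

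The members and gene lists were chosen with earlier results of these data known. Named genes were drawn from the 20 highest protein-coding and 10 highest other features, silent members of a list, the 3 highest and lowest members of a list (all where it has 8 or fewer), the 10 most variable genes, the 10 largest called changes in each direction with at least 50 counts and no overlap between groups, and the genotype genes with STH1 and RAP1. Other genes named, such as copy pairs, genes near chromosome ends, long silent genes and called members beside a list's count, were chosen after their values were seen. Zero intervals and the DAN1 interval (exact, 95%) cover counting error only. Alternatives were other scalings, filters and thresholds, DESeq2 1.42.0, a replicate block and the omission of each library. The pairing of replicate numbers was checked by the correlation of their deviations from group means.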

Additional observations from a re-analysis of the deposited data

How the results depend on the processing

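The number of features that separated WT from the DMSO controls was 427. Without a limit on the fold change it was 2638, of which 1318 were higher and 1320 lower in WT. All other alternatives gave 360 to 478 features, and leaving out 1 library gave 400 to 451, with 118 to 145 higher and 276 to 312 lower in WT. Replicate numbers paired the libraries weakly at most. Same-numbered WT and DMSO libraries correlated above 0.1 in 2 of 9 pairs (mean 0.05, lowest -0.07). Different-numbered ones did so in 0 of 18 pairs (mean -0.02, highest 0.07). The fit with a replicate block called 425 features. Of 546 values of 25 single features under the alternatives, 544 kept their direction and their call, by adjusted p and fold limit together, and RAP1 and RPB3 crossed when the fold limit was dropped. By adjusted p alone HIS3 (0.086) and STH1 (0.183) also crossed with total library size, at 0.0052 and 0.0032, and HIS3 with the 12 WT and DMSO libraries only, at 0.039. RPB3 (0.038) lost an adjusted p below 0.05 without 1 of several libraries, up to 0.127 without WT replicate 2. The 427 features at 0 counts became 953 when up to 3 counts per library were allowed and 1202 at a mean TPM below 1, and were 497 to 530 without 1 replicate, since fewer libraries make a zero easier. The share of the 100 highest genes was 23.1% by counts without length, and 25.5 to 26.4% without 1 replicate. The ribosomal protein median was 774 TPM for genes without an intron, and 499.8 to 551 TPM without 1 replicate, and that of early meiosis genes 1.03 to 1.22 TPM. The median CV was 7.21% with TMM-scaled CPM, and 6.48 to 7.34% without 1 replicate. Depth limits the lowest 10% of genes, at a median of 2.67 counts, and short genes have uncertain TPM.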

Other observations

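ORFs that the reference annotation used here does not list had a median of 0.77 TPM in WT, and 24 of 679 lay above the median of protein-coding genes. The highest was YLR154W-E at 2299, 3566 and 2281 TPM, with replicate 2 high, followed by YDR154C at 812, 701 and 867 TPM and YLR154W-A at 610, 614 and 682 TPM. The source of their reads was not tested.

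By chromosome, the median level of protein-coding genes was lowest on chromosomes VI and I, at 42.4 ± 2.1 and 43.5 ± 1.5 TPM, and highest on chromosome V, at 63.1 ± 1.6 TPM (SD, n = 3). Silent genes made up 7.61% of chromosome I and 1.02% of chromosome XIV.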
